A study of Mus musculus with 6 samples.

Results

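lncRNA033862 is a predicted long non-coding RNA (lncRNA) described as a partial antisense transcript of Gfra1, and it was examined here together with the predicted transcripts whose assembly numbers stand beside its own. The deposited files list it as TCONS_00074936, the only transcript with a length of 6384 bp, and this identification rests on length alone. The neighbours were chosen by number, as every transcript listed in any library numbered from TCONS_00074926 to TCONS_00074946. Of these 21 numbers 14 are listed, which is lncRNA033862 and 13 neighbours, out of 44925 predicted transcripts and 73710 lncRNAs in all. Cultured mouse spermatogonial stem cells (SSCs) were sequenced in 3 conditions with 2 libraries each. N is normal culture with glial cell line-derived neurotrophic factor (GDNF), 0h is culture after 18 h without GDNF, and 8h is culture given GDNF again for 8 h after such a withdrawal. All 3 groups were Thy1-positive germ cells of C57BL/6 mice. They were isolated at 6 to 8 days of age, from 5 animals per isolation, and used at passages 10 to 20. They were kept on inactivated STO feeder cells in serum-free medium, which held 20 ng/ml GDNF, 150 ng/ml soluble GFRA1 and 1 ng/ml FGF2 in normal culture. The study used a pair of independently established lines, each put through all 3 conditions, so n = 2 per condition. Which library came from which line is not stated. Such cultures hold stem cells among other spermatogonia, and with no mRNAs in the files analysed here neither the cell type nor the share of feeder cells was checked by markers.

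GDNF is a secreted factor of the testis that sustains the self-renewal and survival of SSCs. It binds the co-receptor GFRA1 on the cell surface, and the complex activates the receptor tyrosine kinase RET. Antisense transcripts are read from the strand opposite to a gene and can share part of its sequence in reverse complement. TCONS numbers label the predicted transcripts, which the study assembled with Cufflinks. The files hold no coordinates and no strand, so nearness in number was not checked against nearness on the chromosome.

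The GRCm38 annotation puts Gfra1 on chromosome 19, minus strand, at 58235604 to 58455909, and an annotated antisense gene, Gm16277, lies on the plus strand from 58204139 to 58236047. The study places lncRNA033862 across the last Gfra1 exon. This exon spans 58235612 to 58238546 (2935 bp) in an annotated transcript where it is exon 9 of 9, and 58235604 to 58238546 (2943 bp) in Gfra1-201, where it is exon 11 of 11. It holds the end of the coding sequence and the 3′ untranslated region. The genome build used by the authors is not given in the sources used here, so these positions describe the annotation and not the reads. The coding end of this exon is printed because reads from it can belong to either transcript when strand is not recorded. It is given 5′ to 3′ on the Gfra1 strand, chr19:58238391-58238546 in GRCm38, with the stop codon in capitals.
Gfra1 last coding exon: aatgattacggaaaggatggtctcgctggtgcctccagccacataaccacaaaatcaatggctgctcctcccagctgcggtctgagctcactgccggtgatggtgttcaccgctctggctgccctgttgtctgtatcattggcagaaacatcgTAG
The sources used here do not say whether the counting kept Gfra1 mRNA reads apart from antisense reads over this exon. From the counts themselves they cannot be told apart.

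lncRNA033862 had far more reads than any transcript numbered beside it. Its share of the reads counted on the 14 transcripts lay between 97.68% and 99.06% in the 6 libraries. Per length the gap was narrower than in reads, since lncRNA033862 is the longest of the 14, but still wide. TCONS_00074936 was at 175 and 156 RPKM (a read number corrected for transcript length and library total) in N, 64.3 and 59.5 RPKM in 0h, and 129 and 144 RPKM in 8h. The neighbour with the most reads per length was TCONS_00074945 in N and TCONS_00074931 in 0h and 8h, and the RPKM of lncRNA033862 exceeded it by a factor of 126 and 128 in N, 34.2 and 30.7 after withdrawal, and 48.1 and 75.4 after refreshment. No neighbour had more than 35 reads in any library. Depth was 7.69 M to 8.50 M counted reads per library, so a share of a library below 3.53e-05% to 3.9e-05%, which is 3 reads, could not be told from absence.

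The level of lncRNA033862 was lowest without GDNF. In 0h its mean RPKM was 37.3% of that in N, and in 8h it was back at 82.3%. The reads behind these levels were 8773 and 8212 in N, 3340 and 3228 after withdrawal, and 6326 and 7368 after refreshment, so that no condition overlapped with another. Taken by replicate number, the 0h libraries held 36.6% and 38% of the N level, and the 8h libraries 73.5% and 92.1%. On the log2 scale the withdrawal change was -1.41 with a standard error of 0.15 and the refreshment change 1.05 with one of 0.14, at FDRs of 0.00084 and 0.0065 (Benjamini-Hochberg) by the quasi-likelihood test of edgeR. The order of levels was N, 8h, 0h. The 2 upper conditions did not overlap, with a log2 fold change of -0.36 for 8h against N (standard error 0.14), and this difference did not pass the same test (FDR 0.33). Without 0h replicate 2 the refreshment change was 0.98 with an FDR of 0.095, and without 8h replicate 2 it was 0.94, under the 2-fold limit. In bulk RNA a lower level can come from fewer cells that hold the transcript or from less of it per cell, and these cannot be told apart.

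**Figure D1:**
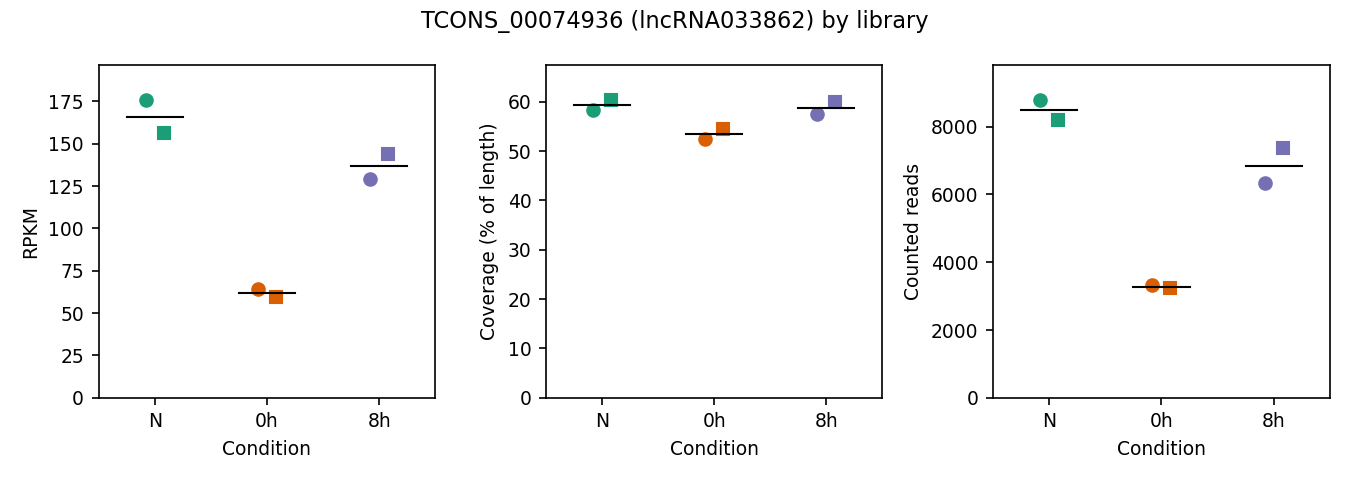
RPKM, coverage as a percentage of the transcript length, and counted reads of TCONS_00074936 in each library, by condition (circles replicate 1, squares replicate 2, lines means). Both 0h libraries lie below all 4 others in each panel, at 64.3 and 59.5 RPKM, whereas coverage stays between 52.4% and 60.24%.

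Reads on lncRNA033862 left a large part of the transcript bare at every depth. Coverage, the share of the length with reads, was 58.35% and 60.24% in N, 52.4% and 54.43% after withdrawal, and 57.55% and 59.87% after refreshment. A transcript with a single read had 90 bp covered in every library, which gives the length of a read. For lncRNA033862 the covered length was 3725 and 3846 bp in N, 3345 and 3475 bp in 0h, and 3674 and 3822 bp in 8h. Each covered base was thus read 83.6 to 212 times on average, while 2538 to 3039 bp had no counted read. Only uniquely mapped reads entered the counts. Most other well-read transcripts of similar length were covered more fully. Among lncRNAs of 5000 to 8000 bp with at least 1000 reads, 138 to 145 in a library, the median coverage was 87.52% to 90%, and 2 to 8 of them were covered less than lncRNA033862. The files do not give which stretch was covered. The covered length was longer than the annotated last Gfra1 exon in each library, and the part that Gfra1 mRNA reads had in it was not tested.

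The neighbours were short and sparsely read. Their lengths ran from 931 to 2291 bp against 6384 bp. Of the 13 neighbours 7 had at least 10 reads in at least 2 libraries and were tested, among 39310 lncRNAs in a fit of all 6 libraries. The other 6 never had more than 8 reads in a library. At the criterion of the study, at least a 2-fold difference with an unadjusted P below 0.05, 3 of the 7 tested neighbours were lower after withdrawal, against 3.51% of all lncRNAs tested, and 1 was higher, against 3.08%. After refreshment 2 of the 7 were higher (5.1% of all lncRNAs) and 0 were lower (4.1%). No neighbour passed an FDR of 0.05 with a 2-fold change in any comparison, where 0.29% of all lncRNAs were lower and 0.221% higher after withdrawal, 0.499% higher and 0.392% lower after refreshment, and 0.0611% higher and 0.153% lower in 8h against N. With so few reads, some neighbours passed the count minimum only through the conditions where they were high. The share among those tested therefore carries no weight as support. Without a minimum, over all 13 neighbours, 3 were lower and 1 higher after withdrawal, against 2.89% and 2.84% of 73710 lncRNAs. In the same fit 0 were lower and 2 higher after refreshment (3.2% and 3.99%), and 0 lower and 2 higher in 8h against N (3.03% and 3.43%). The count after withdrawal was 2 in place of 4 without N replicate 1, without N replicate 2 or without 0h replicate 1.

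**Figure D2:**
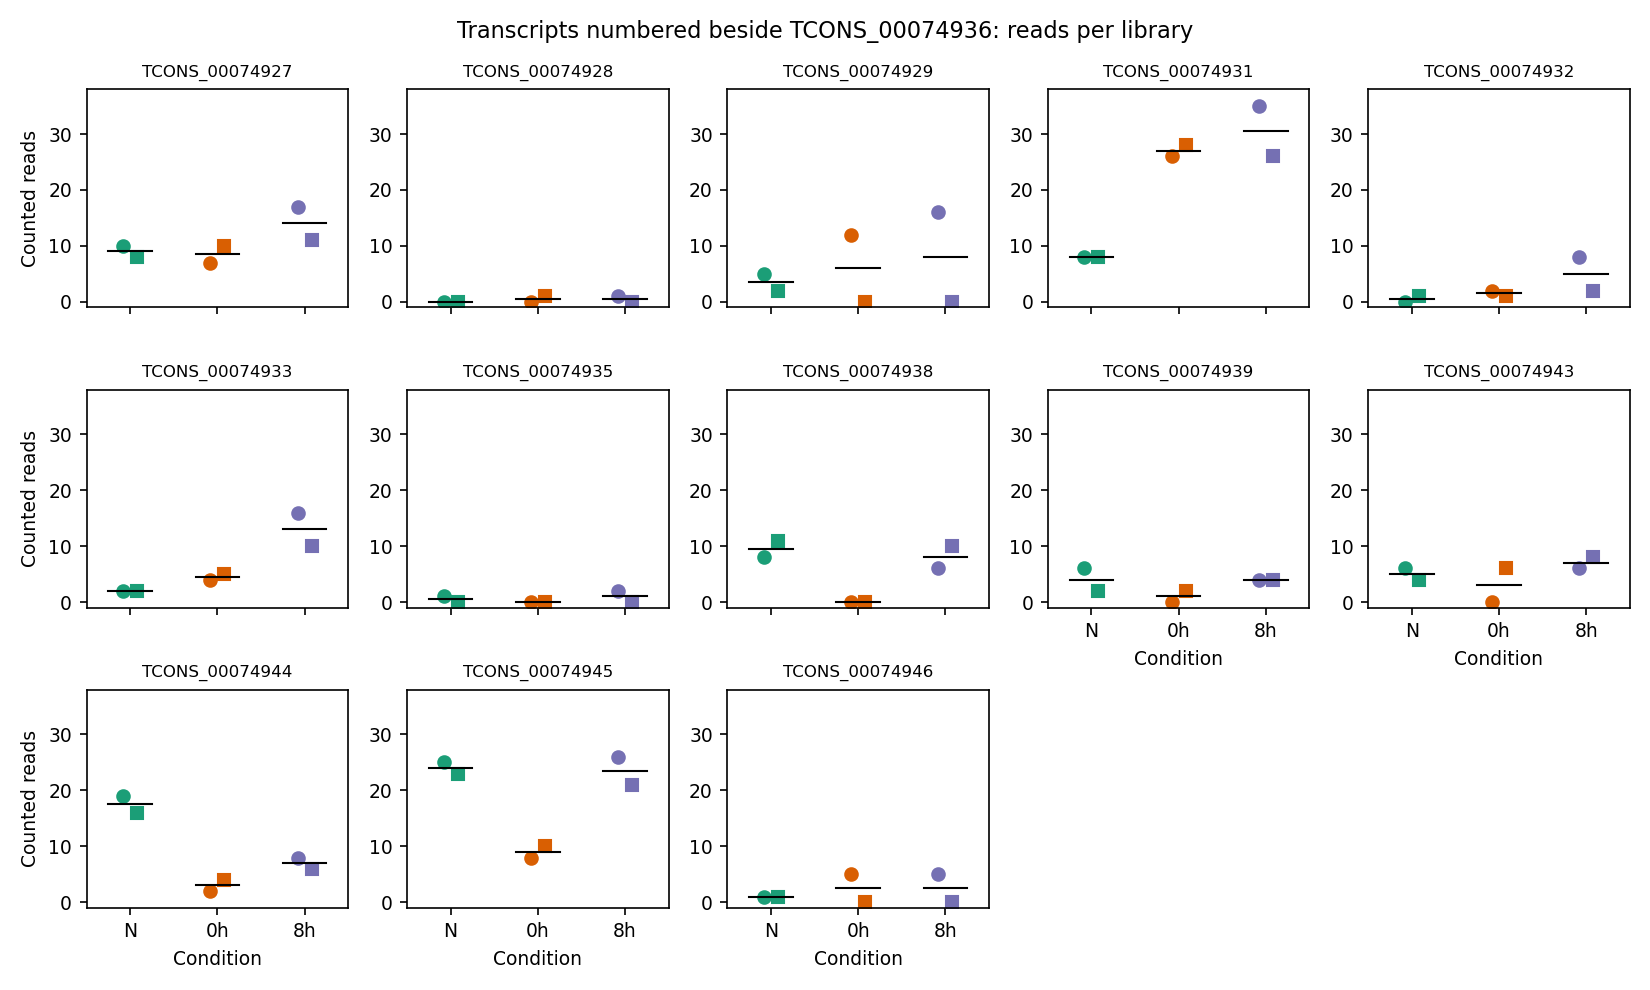
Counted reads of each of the 13 neighbours in each library, by condition (circles replicate 1, squares replicate 2, lines means). TCONS_00074938, TCONS_00074944 and TCONS_00074945 have their lowest counts in 0h, while TCONS_00074931 has 8 reads in both N libraries and 26 to 35 in the others.

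TCONS_00074945 (2291 bp) had the tested profile closest in size to that of lncRNA033862, with a root mean square difference of 0.23 in centred log2 normalized counts over the 6 libraries, although TCONS_00074938 had a higher Pearson r. It had 25 and 23 reads in N, 8 and 10 after withdrawal, and 26 and 21 after refreshment. Both 0h libraries lay below all others, and the N and 8h libraries overlapped. Its log2 fold change of -1.44 after withdrawal (standard error 0.55) was close in size to that of lncRNA033862, and its refreshment change was 1.37 (standard error 0.55). Both met the unadjusted criterion and neither the adjusted one, with FDRs of 0.37 and 0.28 in edgeR's quasi-likelihood test. The withdrawal call was lost without N replicate 1 or without 0h replicate 1, and the refreshment call without either 0h library or without 8h replicate 1. DESeq2's Wald test made neither call. Coverage moved with the reads, from 46.18% and 52.25% in N to 28.07% and 27.41% in 0h and to 64.69% and 48.23% in 8h.

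TCONS_00074938 (1253 bp) was not detected in 0h. It had 8 and 11 reads in N, none in either 0h library, and 6 and 10 in 8h. Against a floor of 3 reads per library, its level was at least 3.23-fold higher in N and at least 2.65-fold higher in 8h than in 0h. The fitted differences met the unadjusted criterion in both comparisons, with FDRs of 0.25 after withdrawal and 0.19 after refreshment in edgeR's quasi-likelihood test. Without N replicate 2 or without 8h replicate 2 it no longer had enough reads to be tested. Its number is the nearest above lncRNA033862 among the transcripts listed.

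TCONS_00074944 (1753 bp) was lowest in 0h. Reads were 19 and 16 in N, 2 and 4 after withdrawal, and 8 and 6 after refreshment. Both N libraries stood above the other 4, and the 8h libraries lay between the other conditions. The withdrawal change of -2.54 (standard error 0.91) met the unadjusted criterion but had an FDR of 0.34, and it was lost without 0h replicate 1. Without either N library too few reads were left for a test. For refreshment the value was 1.19 (standard error 0.95), which met neither criterion. Set against N, the level in 8h differed by -1.35 (standard error 0.84, FDR 0.55 in edgeR's quasi-likelihood test).

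TCONS_00074931 (1698 bp) went the other way. It had 8 reads in each N library, 26 and 28 after withdrawal, and 35 and 26 after refreshment. The N libraries lay below all others, whereas 0h and 8h overlapped. After withdrawal the log2 fold change was 1.70 (standard error 0.52, FDR 0.24), after refreshment 0.17 (standard error 0.47, FDR 0.92) and for 8h against N 1.87 (standard error 0.52, FDR 0.16) in edgeR's quasi-likelihood test. The first and the last met the unadjusted criterion, and both did so with any 1 library left out. With 35 reads in 8h replicate 1 its coverage was 82.16%, above that of lncRNA033862 with 6326 reads in the same library.

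TCONS_00074933 (931 bp) had 2 reads in each N library, 4 and 5 after withdrawal, and 16 and 10 after refreshment. Its highest libraries were those of 8h, and none of the 3 conditions overlapped. Only 8h against N met the unadjusted criterion, at 2.58 on the log2 scale (standard error 1.17, FDR 0.4 in edgeR's quasi-likelihood test), and the call was lost without either N library. Without either 8h library it had too few reads for a test. In that comparison 2 of the 7 tested neighbours were higher, against 4.05% of all lncRNAs tested, and 0 were lower, against 4.17%.

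TCONS_00074927 and TCONS_00074929 met no criterion in any comparison. TCONS_00074927 (1260 bp) had 10 and 8 reads in N, 7 and 10 after withdrawal, and 17 and 11 after refreshment, so that N and 0h overlapped. TCONS_00074929 (999 bp) had 5 and 2 reads in N, 12 and 0 after withdrawal, and 16 and 0 after refreshment. The reads of TCONS_00074929 after GDNF withdrawal and after refreshment all lay in replicate 1.

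**Figure D3:**
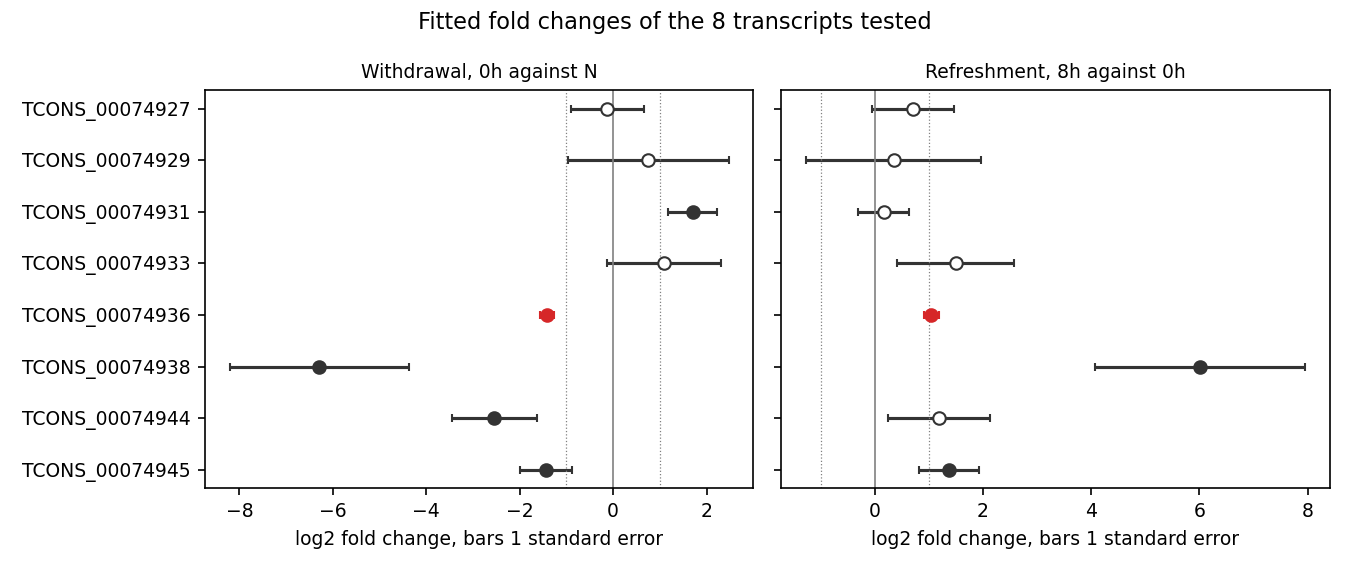
Log2 fold changes with 1 standard error for the 8 transcripts tested, after withdrawal and after refreshment (red, TCONS_00074936; filled points, 2-fold with an unadjusted P below 0.05; dotted lines, 2-fold). The 3 transcripts numbered above TCONS_00074936 lie to the left after withdrawal, and the error bar of TCONS_00074936 is the shortest in both panels.

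The 6 neighbours with too few reads for a test gave values near the limit of detection. TCONS_00074943 (1876 bp) had 6 and 4 reads in N, 0 and 6 after withdrawal, and 6 and 8 after refreshment. TCONS_00074939 (1121 bp) had 6 and 2, then 0 and 2, then 4 and 4. TCONS_00074932 (1403 bp) had 0 and 1, then 2 and 1, then 8 and 2. All 3 had at most 8 reads in any library, and their conditions overlapped or nearly so. TCONS_00074946 (1063 bp) had 12 reads in the 6 libraries together, TCONS_00074935 (1155 bp) had 3 and TCONS_00074928 (1064 bp) had 2.

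The neighbours differed by the side on which they were numbered. This grouping was made after the values were seen and was given no test. The 6 neighbours with higher numbers summed to 65 and 57 reads in N, 15 and 22 after withdrawal, and 55 and 49 after refreshment, so that both 0h libraries lay below the rest, as they did for lncRNA033862. The 7 with lower numbers summed to 26 and 21 reads in N, 51 and 45 after withdrawal, and 95 and 49 after refreshment, with both N libraries lowest. Per 1000 reads of lncRNA033862, the higher-numbered neighbours had 7.41 and 6.94 reads in N, 4.49 and 6.82 after withdrawal, and 8.69 and 6.65 after refreshment. The lower-numbered had 2.96 and 2.56 in N, 15.3 and 13.9 after withdrawal, and 15 and 6.65 after refreshment. The ratio thus kept within a narrower range on the higher-numbered side, and on the other side it was higher in 0h than in N. TCONS_00074931 made up most of the lower-numbered reads in 0h. Both 0h libraries lay below all N and 8h libraries, in normalized counts, for 3 of the 7 tested neighbours, all with higher numbers, where 9.74% of all lncRNAs tested did so. Both N libraries lay below the other 4 for 2 of the 7, all with lower numbers, where 8.15% of all did so. TCONS_00074944 had reached the count minimum only through N and TCONS_00074938 only through N and 8h, as TCONS_00074931 had through 0h and 8h and TCONS_00074933 through 8h, so these counts are given as a description and carry no weight as support.

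**Figure D4:**
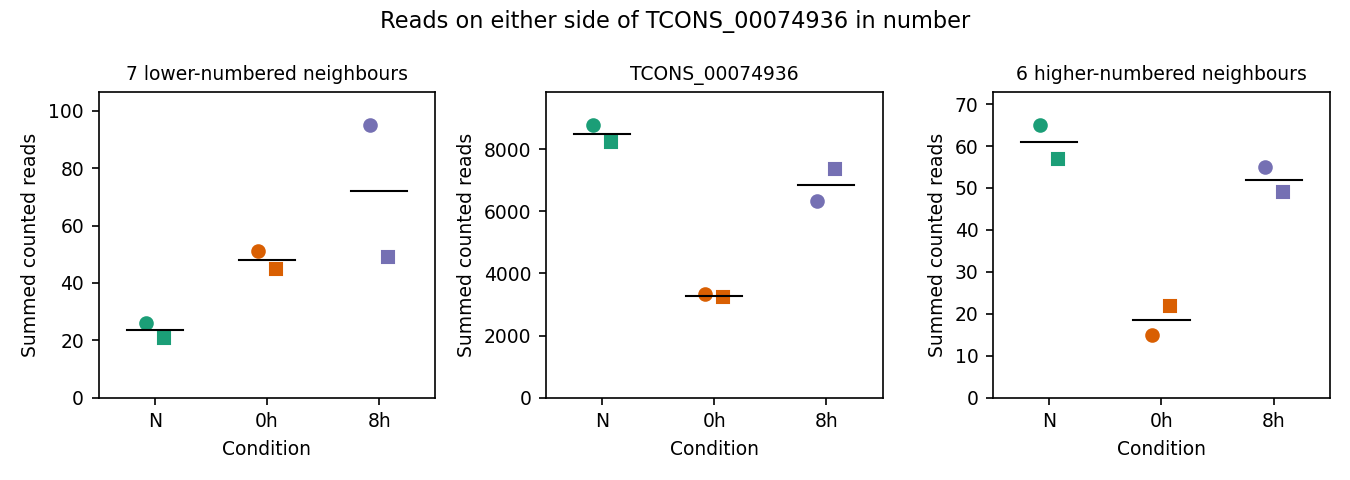
Summed counted reads per library of the 7 lower-numbered neighbours, of TCONS_00074936 and of the 6 higher-numbered neighbours, by condition (circles replicate 1, squares replicate 2, lines means; each panel has its own scale). The higher-numbered neighbours have 15 and 22 reads in 0h against 49 to 65 elsewhere, and the lower-numbered neighbours have 21 and 26 in N against 45 to 95.

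To set each tested neighbour against lncRNA033862 directly, the log2 ratio of their normalized counts was compared between conditions. After withdrawal this ratio moved by -0.00 for TCONS_00074945, by -1.05 for TCONS_00074944 and by -2.93 for TCONS_00074938, whose 0h level is set by the pseudocount of 0.5. For TCONS_00074931 it moved by 3.06, for TCONS_00074933 by 2.37, for TCONS_00074927 by 1.28 and for TCONS_00074929 by 0.83. An exact two-sided permutation test of 2 libraries against 2 cannot give a p below 0.333, and it gave 0.333 for 5 of these ratios and 1.000 for TCONS_00074945 and TCONS_00074929. This test therefore cannot pass a threshold of 0.05 for any neighbour. In the fit over all lncRNAs, TCONS_00074931 stood at 1.70 (standard error 0.52) and lncRNA033862 at -1.41 (standard error 0.15) after withdrawal, in opposite directions, and the difference between them was not tested in that fit.

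Over a wider range of numbers the shares came nearer to those of all lncRNAs. After withdrawal, 14.8% of the 27 tested transcripts within 50 numbers were lower at the unadjusted criterion, 11.4% of the 44 within 100 and 6.03% of the 232 within 500, against 42.9% of the 7 within 10. Each range holds the 7, and without them 1 of 20 was lower within 50, 2 of 37 (5.41%) within 100 and 11 of 225 (4.89%) within 500. After refreshment the shares that were higher were 28.6%, 22.2%, 15.9% and 12.5% from the narrowest to the widest range, and without the 7 they were 20%, 13.5% and 12% of those within 50, 100 and 500. No transcript within 100 numbers other than lncRNA033862 passed the FDR threshold in either comparison. Over both sides together the refreshment shares stayed above 5.1% at every width, with and without the 7. The median log2 fold change of the 232 was 0.43 for refreshment and 0.47 for 8h against N, where the medians over all lncRNAs were -0.00 and 0.01. Medians of that size occurred elsewhere in the numbering, since 16 of 168 blocks of 1001 numbers had a higher one for refreshment.

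Transcripts beyond the neighbours were also described by side, a split made after the values were seen and given no test. Of the 11 tested at 11 to 50 numbers above lncRNA033862, 9 had a withdrawal log2 fold change below 0, with a median of -0.47, and 10 had a refreshment value above 0, with a median of 1.03. At the unadjusted criterion 1 of the 11 (9.09%) was lower and 1 (9.09%) higher after withdrawal. Over all lncRNAs tested these withdrawal shares were 3.51% and 3.08%. Of the 9 tested at 11 to 50 numbers below it, 4 were below 0 after withdrawal (median 0.33) and 5 above 0 after refreshment (median 0.57). From 11 to 500 numbers above, 11 of 118 (9.32%) were lower after withdrawal at this criterion and 4 (3.39%) higher, with a median of -0.30. On the lower-numbered side 0 of 107 were lower and 8 (7.48%) higher, with a median of 0.38. After refreshment 24 of the 118 (20.3%) were higher and 1 lower, with a median of 0.85. Of the 107, 3 (2.8%) were higher and 7 (6.54%) lower, with a median of -0.09. The refreshment shares over all lncRNAs tested were 5.1% higher and 4.1% lower. The comparisons share the 0h libraries, so a low 0h count enters both. Those named next were picked after their values were seen. TCONS_00074967 (858 bp), 31 numbers above, had 23 and 13 reads in N, 4 and 5 after withdrawal, and 17 and 13 after refreshment, with a withdrawal value of -2.02 (standard error 0.74) and FDRs of 0.36 and 0.34 for withdrawal and refreshment in edgeR's quasi-likelihood test. TCONS_00074977 (1307 bp), 41 numbers above, was the exception at the unadjusted criterion, with 3 and 8 reads in N, 26 and 19 after withdrawal, and 14 and 18 after refreshment.

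**Figure D5:**
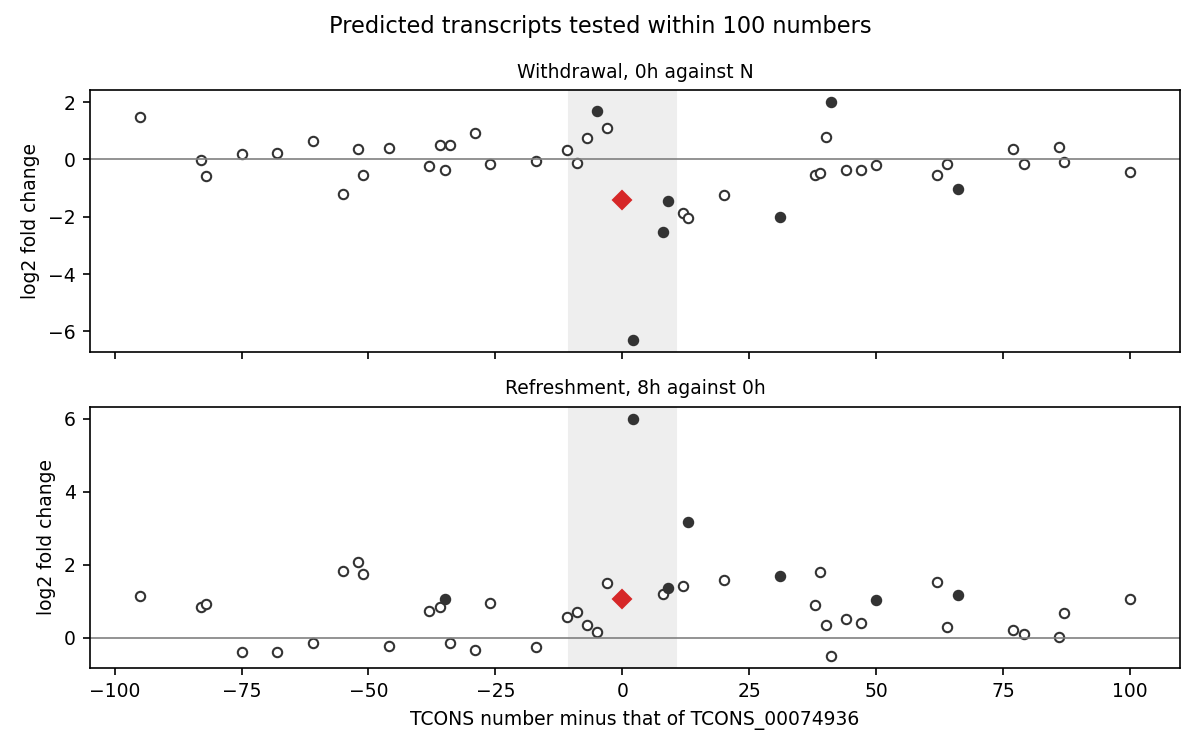
Log2 fold change of each predicted transcript tested within 100 numbers of TCONS_00074936, against its TCONS number minus that of TCONS_00074936 (red diamond, TCONS_00074936; filled circles, 2-fold with an unadjusted P below 0.05; grey band, the 10 numbers to each side). After withdrawal 5 of the 44 are lower at this criterion, all numbered above TCONS_00074936, and 2 are higher.

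Transcripts with consecutive numbers were also somewhat alike elsewhere in the assembly. Across all pairs of tested predicted transcripts with consecutive numbers (6038 pairs), the withdrawal log2 fold changes had a Pearson r of 0.337 and a Spearman rho of 0.321. At 5 numbers apart r was 0.155, at 10 apart 0.079 and at 50 apart 0.102, so that the value at 10 did not exceed that at 50. Among transcripts with a mean of at least 50 normalized counts r was 0.365 for consecutive numbers (229 pairs), -0.137 at 5 apart (116 pairs) and 0.0823 at 10 apart (110 pairs). These are correlations across transcripts of the same 6 libraries, which are not independent replicates. Of the 64 predicted transcripts that were lower after withdrawal at the FDR threshold, lncRNA033862 among them, 8 (12.5%) had another such transcript within 10 numbers, and 13 (20.3%) had at least 3 transcripts there that were lower at the unadjusted criterion, as lncRNA033862 had. The median number of tested neighbours was 4 for these 64, whereas lncRNA033862 had 7, so the comparison is not like for like. No share over all tested predicted transcripts is set beside it.

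Well-read lncRNAs were ranked by likeness to the pattern of lncRNA033862 over the 6 libraries. No neighbour had enough reads to be ranked among them. Among 7502 other lncRNAs with a mean of at least 100 normalized counts, 166 had a Pearson r above 0.9 with it on the log2 scale. The 5 highest were n265850 (r = 0.993), TCONS_00148213 (0.991), TCONS_00011110 (0.989), TCONS_00099535 (0.989) and n294918 (0.988), where identifiers starting with n are known lncRNAs of NONCODE. A high r did not mean a change of like size. The known lncRNA n265850 (3767 bp) had 3525 and 3700 reads in N, 2642 and 2798 after withdrawal, and 3357 and 3614 after refreshment, a withdrawal log2 fold change of -0.45 (standard error 0.14). TCONS_00011110 (3016 bp) came closest in size as well, with 274 and 293 reads in N, 133 and 115 after withdrawal, and 235 and 260 after refreshment. Its log2 fold changes were -1.22 (standard error 0.23) and 0.98 (standard error 0.23), with FDRs of 0.035 and 0.064 in edgeR's quasi-likelihood test. Of the neighbours, TCONS_00074938 had an r of 0.972, TCONS_00074945 of 0.939 and TCONS_00074944 of 0.888, at counts where a few reads move the value, and TCONS_00074931 had -0.642. The lower-numbered TCONS_00074927, TCONS_00074929 and TCONS_00074933 had 0.287, 0.083 and -0.162. Of all lncRNAs tested, 0.181%, 0.649% and 1.97% had a higher r than the 3 higher-numbered neighbours. For TCONS_00074927, TCONS_00074929, TCONS_00074933 and TCONS_00074931 these shares were 30.9%, 43.8%, 60.2% and 89.9%. The 3 higher-numbered neighbours had reached the count minimum in part through their levels in N and 8h, so their ranks carry no weight as support. The r values describe 6 libraries in 3 conditions.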

How the data were processed

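The authors depleted total RNA of ribosomal RNA, primed cDNA with random hexamers and sequenced it on an Illumina HiSeq instrument. Transcripts were assembled with Cufflinks, known lncRNAs were named from NONCODE and predicted ones were classed by Coding Potential Calculator. The aligner, the counting tool and the genome build are not given in the sources used here. The authors deposited raw counts of uniquely mapped reads per transcript, a coverage signal (percentage of length covered, exceeding 100 for 1 transcript in each of 2 libraries that are no members) and RPKM, which equals the count divided by transcript length and library total, on the usual scale. A transcript not listed in a library was given a count of 0.

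Counts were fitted for all 6 libraries in 3 groups with edgeR 4.0.16 (TMM, quasi-likelihood test, R 4.3.3) over the 39310 lncRNAs that reached 10 counts in 2 or more libraries, with Benjamini-Hochberg adjustment over all of them. Normalized counts are scaled to the mean effective library size, and log2 values use a pseudocount of 0.5. DESeq2 1.42.0 and other filters, normalizations and left-out libraries were alternatives. The fit was tested on simulated counts with log2 fold changes of 2 and 3 in 200 transcripts with a mean count of at least 50. It recovered 94% and 100% of them, with 11 false calls. No neighbour reached that count and lncRNA033862 changed less, so this check does not cover them. P-values and standard errors of the fit rest on the spread between libraries of a condition. This spread is taken over all 3 conditions, with information shared across transcripts. Each condition has 2 libraries, and floors cover counting error only. Positions and the Gfra1 sequence are from GENCODE vM21 on GRCm38. No sequence of the TCONS transcripts was used here. Every neighbour is named, with any transcript within 100 numbers past the FDR threshold. The 5 transcripts most like lncRNA033862 by Pearson r are named among those with a mean of at least 100 normalized counts. The members, lists and tests were chosen with earlier results of these data known.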

Additional observations from a re-analysis of the deposited data

How the results depend on the processing

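The withdrawal change of lncRNA033862 kept its call under all 13 alternatives, between -1.49 and -1.33 with a library left out. Its refreshment change was 0.94 to 1.18 with a library left out and lost the call at 0.94 and 0.98, and its value for 8h against N was -0.47 to -0.23. With at least 50 counts in 2 libraries no neighbour could be tested, and the counts of neighbours at the unadjusted criterion were 0 in each comparison. With a library left out they were 2 to 4 after withdrawal (4 in the main fit), 1 to 2 after refreshment (2) and 1 to 2 for 8h against N (2). After refreshment the count was 1 with only the 2 groups compared and 1 with DESeq2's Wald test. At the FDR threshold it was 0 in every fit. The shares within 50, 100 and 500 numbers were 14.8%, 11.4% and 6.03% lower after withdrawal, and 15.9% and 12.5% higher within 100 and 500 after refreshment.

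Replicate numbers are shared by the conditions, but no source says that a number marks a line. The difference between replicates 1 and 2 correlated across lncRNAs at 0.16 to 0.19 between conditions, and at 0.513 to 0.585 across those with a mean of 100 normalized counts or more, as lncRNA033862 has. With the replicate block added, lncRNA033862 stood at -1.41, 1.05 and -0.35, and 644 in place of 201 lncRNAs passed the FDR threshold after withdrawal and 1248 in place of 350 after refreshment. The block left 1 neighbour, TCONS_00074931, at the unadjusted criterion for 8h against N (TCONS_00074933 had an unadjusted P of 0.058 by edgeR), turned TCONS_00074929 after withdrawal to -0.08, and brought no neighbour past the FDR threshold.

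The values whose sign turned met no criterion, and the largest of them was 0.75 (TCONS_00074929 after withdrawal). With total counts TCONS_00074945 was at 0.00 for 8h against N. With a library left out the ranges that crossed 0 were -0.35 to 0.07 (TCONS_00074927) after withdrawal, -0.64 to 1.36 (TCONS_00074929) and -0.04 to 0.37 (TCONS_00074931) after refreshment, and -0.46 to 0.05 (TCONS_00074938) and -0.22 to 0.07 (TCONS_00074945) for 8h against N. By root mean square difference in place of Pearson r, 1 of the 5 most similar transcripts was shared, and with a mean of 50 normalized counts 4 were. At 35 reads or fewer per library, depth limits what can be said of any neighbour.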
